A study of Pinus pinaster with 66 samples.

Results

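The 150 array spots described here had their highest level of the year, averaged over Whorls 1 to 3, in May in the mature needles of maritime pine (Pinus pinaster). They were taken from a cDNA microarray of 8208 spots on which needle RNA was compared with 1 common reference, a pool of January needles. Among the 5788 spots that had a value on all 65 arrays used and are not named in the paper, a spot's month mean was the average of Whorl 1, Whorl 2 and Whorl 3, and its May margin was the May mean minus the highest mean of the other 5 months. The 150 spots with the largest margin were kept. The choice therefore used every mature needle array, and the May level of Whorls 1 to 3 below is a description. Whorl 0, the needles of the current year, had no part in the choice. The rule averaged Whorls 1 to 3 and did not use their differences within a month. A spot could still enter through 1 high whorl, so the counts of age differences below are not independent of the choice.

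The needles came from the same 6 field-grown trees, 20 to 25 years old by the labels, sampled through 2012 in the Sierra Bermeja, and each sample was a pool of RNA from 2 of them. There were 3 samples per group. Whorl 0 (needles formed in 2012) was harvested in May, July, September and November, and Whorl 1 (2011), Whorl 2 (2010) and Whorl 3 (2009) also in January and March, which gives 22 groups. No treatment or genotype is named for the trees, so the groups differ in month and needle age. Without gene names the tissue could not be checked against marker genes. The p-values below measure the spread between pools of trees from 1 stand in 1 year. Values are log2 ratios to the January pool, in which positive stands for more RNA in the needles sampled than in the pool, as the study reads them. The labels give the January samples as the source of the pool and its harvest date is in January, but a month field beside them names other months in most samples. The paper's methods also name January, and that month was used here. The reference cancels in differences between groups if it was the same pool on every array. The median over all spots of an array was exactly 0, so a level is relative to the average spot. One array, November Whorl 2 replicate 2, was not used, so that group has 2.

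Pines keep needles of several years side by side. New needles emerge from the buds in spring and elongate over weeks, while the older cohorts already photosynthesise and export carbon and nutrients to the growing shoot. In spring the mature and the youngest needles of a branch thus share the weather but not the stage of development. The array data name no gene for these spots, so they are identified by their position code, and neither their sequence nor their function is given. Whether several of them carry the same transcript is not known.

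In mature needles, the median level of the 150 spots was -0.21 in January and -0.15 in March, 0.47 in May, then 0.06 in July, and -0.30 and -0.32 in the autumn months September and November. The May level lay above 0 for 146 of 150 spots. By array, the median over the 150 spots was between 0.25 and 0.65 on the 9 arrays of May. July lay next, and 1 array of Whorl 1 in July, at 0.44, stood inside the range of May. July was the month with the second highest mean for 111 spots, January for 15, March for 10, September for 9 and November for 5. Among all 868 spots with a margin above 0, July came second for 52.4%. The lowest month was September for 63 of the 150 spots (42%) and November for 53 (35.3%), against 22.2% and 13.3% of all complete spots. By the rule none of the 150 could be lowest in May.

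The margins were modest in size. They had a median of 0.38 and reached 1.01 for Q2E7 and 0.92 for Q8E21. The last spot inside the limit was Q18L17 with 0.2726 and the first outside was Q8A21 with 0.2722, so the limit cut through a continuous range. For 8 of the 150 spots all 9 mature arrays of May lay above all 44 mature arrays of other months, and these were 0.137% of all 5823 complete spots. When 150 spots were chosen anew on 2 of the 3 replicate numbers, 134, 127 and 120 of them were among the 150 described here. The margin in the number left out was above 0 for 148, 139 and 146 of the spots so chosen, with medians of 0.30, 0.24 and 0.43. All 3 numbers entered the choice of the 150 described here, so these values are a description. Among all spots between 14.5% and 15% had a margin above 0 in the number left out.

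Q2E7 had levels between 1.61 and 2.36 on the 9 mature arrays of May, with a median of 1.86. Its mean was 0.74 in March and 0.91 in July, and -0.41 in November. Whorl 0 needles of May had 1.16, 0.89 and 1.04, those of July 0.94, 1.82 and 1.83, those of September 1.21, 1.37 and 0.79, and those of November 0.16, 0.19 and -0.11. The 9 Whorl 0 values of May, July and September were thus all above those of November, and May exceeded November by 0.95 ± 0.24 (SE, limma adjusted p = 0.0014). Q8E21 was at 0.65 to 1.11 in the mature arrays of May, with a mean of -0.06 in January as its second month. In Whorl 0 its values of 0.50, 0.57 and 0.84 in May lay above all those of July, which were 0.14, 0.23 and -0.01, but this difference of 0.52 ± 0.21 had an adjusted p of 0.062. Its Whorl 0 difference between May and the mean of the 3 later months was 0.93 ± 0.17 (SE, limma adjusted p = 2.2e-05).

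**Figure D1:**
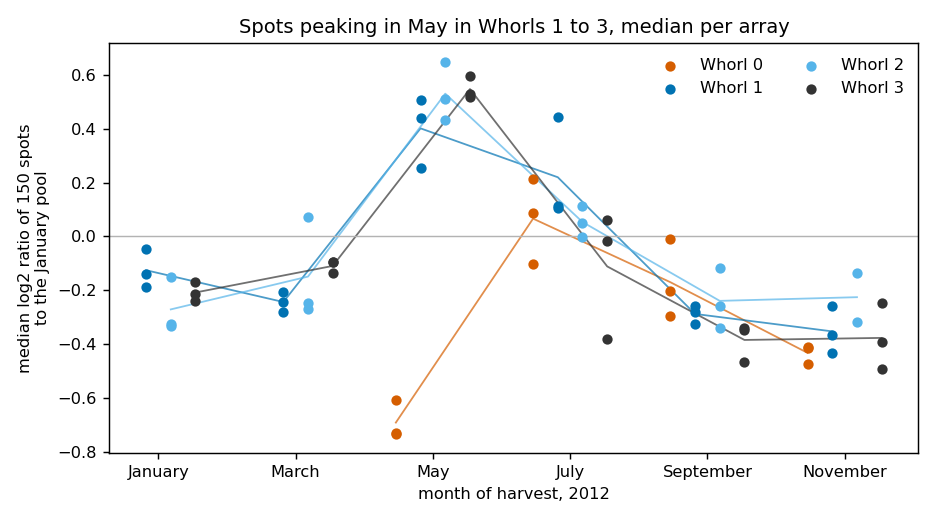
Median log2 ratio to the January pool over the 150 spots, 1 point per array, by month of harvest and whorl, with lines through the means of the groups. The 3 Whorl 0 arrays of May lie between -0.73 and -0.61, below every other array, while the 9 mature arrays of May lie between 0.25 and 0.65.

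The question that Whorl 0 can answer is whether the May maximum of mature needles is also found in needles that are still developing. For most of these spots it was not. The median over the 150 spots was -0.61, -0.73 and -0.73 on the Whorl 0 arrays of May, 0.21, 0.09 and -0.10 on those of July, -0.20, -0.01 and -0.29 on those of September, and -0.41, -0.47 and -0.42 on those of November. The May arrays were lower than all 9 later Whorl 0 arrays. Taken spot by spot, the median level was -0.70 in May and 0.03 in July, followed by -0.18 in September and -0.42 in November. The medians over all complete spots lay between -0.04 and 0.00 in these months. In Whorl 0 the highest mean was in July for 105 of 150 spots (70%), against 23% of all complete spots, and the lowest mean was in May for 96 (64%), against 30.8%. May was the highest month of Whorl 0 for 20 of the 150 spots (13.3%), against 19.2% of all complete spots.

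In a limma fit with a Benjamini-Hochberg adjusted p under 0.05 as the threshold, 94 of 150 spots were lower and 24 higher in Whorl 0 of May than in the mean of July, September and November. Among all 7362 spots tested, 18.5% were lower and 15% higher, and among the complete spots alone 21.7% and 13.7%. The median difference was -0.54 over the 150 spots, and 26 of them were called and lower by over 1, against 84 of all 5823 complete spots. Over all complete spots the median difference was -0.03. On the Whorl 0 arrays the ratios of all complete spots also spread more widely in May, with a mean SD of 0.42 over an array, than in July (0.39), September (0.34) and November (0.27). When all arrays were given the same distribution by quantile normalization, 50 of the 150 spots were lower and 17 higher, against 10.5% and 7.17% of all spots tested, and the median difference was -0.26.

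The comparison with July, the month in which Whorl 0 reached its highest level for most spots, gave the largest median difference of the 3. There 102 of 150 spots were lower in May and 7 higher, against 15.1% and 10.3% of the 7534 spots tested, with a median difference of -0.80. After quantile normalization 73 were lower and 3 higher, against 7.59% and 4.74%, with a median of -0.51. All 3 May arrays lay below all 3 July arrays for 115 of 150 spots (28.4% of all complete spots did so) and above them for 9 (22.7%). Against September 84 spots were lower and 24 higher in May, where 17.6% and 12.5% of the 7621 spots tested were called, and the median difference was -0.56. Quantile normalization gave 56 lower and 17 higher there, against 10.4% and 8.42%, and a median of -0.29. Against November 55 were lower and 33 higher, with 21.7% and 21.2% of the 7597 spots tested, and the median difference was -0.21. This last direction rested on the scaling, because quantile normalization gave 19 lower and 28 higher spots and a median of 0.02. The 3 later months were set against the same May arrays, so these counts share their data.

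**Figure D2:**
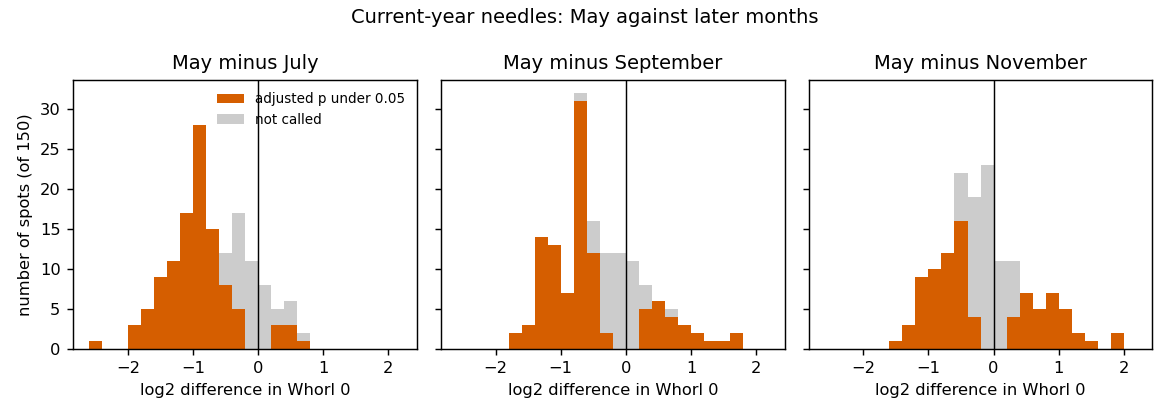
Differences in log2 ratio between May and each later month in Whorl 0, as histograms over the 150 spots, with spots past an adjusted p of 0.05 in colour. The medians are -0.80 against July, -0.56 against September and -0.21 against November, and a smaller group of spots lies to the right of 0 in each panel.

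The 150 spots did not behave as 1 block in the youngest needles. Of them, 52 (34.7%) were lower in May than in each of July, September and November, a pattern found in 5.39% of the 7362 spots tested in all 3 comparisons. A further 27 (18%) were lower than in July and September alone and 18 (12%) lower than in July alone, against 3.59% of all spots for either pattern. In the other direction, 6 (4%) were higher in May than in each later month, against 2.99%, and 13 (8.67%) were higher than in September and November with no call against July, against 4.90%. In 9 (6%) no comparison passed the threshold, against 37.7%. All 3 Whorl 0 arrays of May lay below the 9 others for 67 of 150 spots (10.9% of all complete spots) and above them for 7 (5.67%).

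In the needles of Whorls 1 to 3 the spots that differed in Whorl 0 looked alike in May. The 94 spots lower in Whorl 0 of May had a median mature May level of 0.47, as had the 24 higher spots and the 32 without a call. In Whorl 0 the 94 spots had medians of -0.99 in May and -0.02 in July, followed by -0.23 in September and -0.53 in November. The 24 higher spots had 0.68, 0.52, -0.04 and -0.24 in the same months. July was the second month of mature needles for 74 of the 94 spots and for 13 of the 24. These groups were formed from the Whorl 0 values themselves, so their Whorl 0 levels are a description.

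The spots with the largest Whorl 0 differences show both forms. Spots higher in May than in the mean of the later months were 16% of the 150, near the 15% of all spots tested. Q7H1 had -2.03, -2.22 and -1.63 in Whorl 0 of May and 0.30, 0.50 and 0.70 in July. In September it had -1.66, -0.38 and -0.31 and in November -1.20, -0.51 and 0.25, so that 1 later array, of September, lay within the range of May and the others above it. Its difference between May and July was -2.46 ± 0.39 (SE, adjusted p = 2.4e-06) and that between May and the mean of the later months -1.70 ± 0.32 (adjusted p = 3.3e-05). In mature needles of May the same spot was between 0.52 and 2.05.

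Q8N16 had -1.83, -1.98 and -2.04 in Whorl 0 of May. The later values were 0.34, -0.11 and -0.32 in July and -0.39, -0.15 and -0.44 in September, with -0.70, -0.70 and -0.48 in November. The May arrays stood apart from all 9 others by more than 1. Its difference from the mean of the later months was -1.62 ± 0.15 (SE, adjusted p = 1.5e-12). Q8F16 was similar, with -1.74, -1.92 and -1.86 in Whorl 0 of May and values between -0.90 and 0.15 afterwards, and it had the largest negative difference from September, at -1.66 ± 0.16 (adjusted p = 6.7e-12).

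Q6J17 had 1.12, 1.29 and 1.25 in Whorl 0 of May and 0.98, 0.81 and 0.58 in July. The autumn values were -0.62, -0.32 and -0.75 in September and -0.80, -0.26 and -1.0 in November. All May values were the highest of the Whorl 0 arrays, and those of July still lay far above those of autumn. Its difference from the mean of the later months was 1.37 ± 0.14 (SE, adjusted p = 2.9e-11). The difference from July alone, 0.43 ± 0.17, did not pass the threshold (adjusted p = 0.056). In mature needles of May this spot was between 0.38 and 1.36, so in this case young and old needles were high together.

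Q14A18 had 1.83, 1.59 and 1.81 in Whorl 0 of May and 1.52, 1.57 and 0.94 in July. In autumn it had -0.55, 0.49 and -0.06 in September and -0.32, -0.29 and 0.26 in November. The May and July values did not overlap, but their difference of 0.40 ± 0.22 had an adjusted p of 0.18. The difference from the mean of the later months was 1.35 ± 0.18 (SE, adjusted p = 2.6e-08). In May it was lower in Whorl 3 than in Whorl 1 (difference -0.82 ± 0.22, adjusted p = 0.006), with -0.08, -0.26 and -0.18 in Whorl 3, 0.76, 0.48 and 0.32 in Whorl 2 and 0.38, 0.91 and 0.66 in Whorl 1.

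Among the 7 spots higher in Whorl 0 of May than of July, Q11G17 and Q11L13 had the largest differences. Q11G17 had 1.43, 0.81 and 1.25 in May and 0.31, 0.26 and 0.61 in July, a difference of 0.77 ± 0.21 (SE, adjusted p = 0.0045), and this call was lost after quantile normalization and without replicate 1. Q11L13 had 0.45, 0.41 and 0.41 in May and -0.27, -0.09 and -0.04 in July, a difference of 0.56 ± 0.13 (adjusted p = 0.00062).

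**Figure D3:**
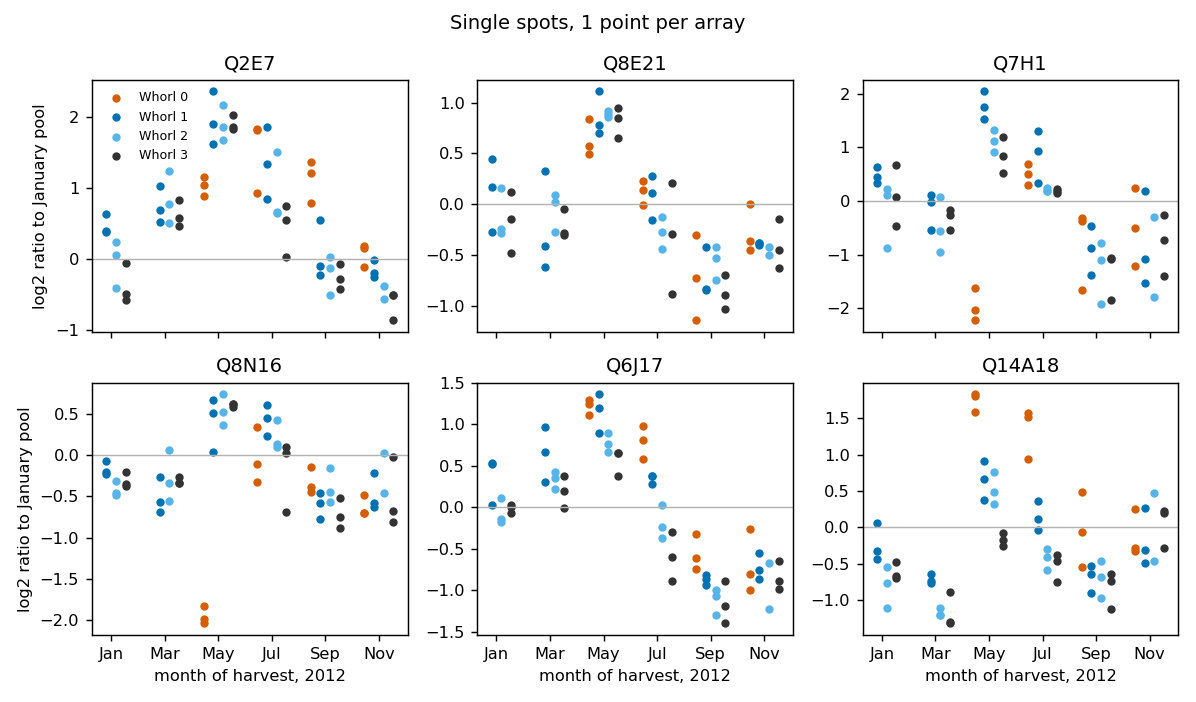
Log2 ratio to the January pool of 6 spots, 1 point per array, by month and whorl. Q7H1 and Q8N16 have their lowest Whorl 0 values in May, at -2.22 and -2.04, while Q6J17 and Q14A18 have their highest Whorl 0 values in May, at 1.29 and 1.83.

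Set beside the mature needles of the same month, Whorl 0 differed by a median of -1.20 in May. There 13 of 150 spots lay above 0, against 43.9% of all complete spots. The median difference between Whorl 0 and mature needles was -0.02 in July, 0.16 in September, where 122 of 150 spots lay above 0, and -0.11 in November. Over all complete spots the medians of the 4 months lay between -0.04 and -0.01. The mature side of these differences was used in the choice of spots, and no test was made.

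After July the level of many of these spots fell in the young needles. The comparison of the mean of September and November with July in Whorl 0 was added after the values had been seen. In it 81 of 150 spots were lower in autumn and 1 higher, against 18.5% and 14.9% of the 7362 spots tested, with a median difference of -0.39. Without replicate 1 it called 50 lower and 1 higher, against 13.4% and 10.2%.

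Whorl 3 was also compared with Whorl 1 within the mature needles. Their arrays served in the choice of spots, so the counts and p-values of this age comparison, here and below, are not independent of that choice. In May 30 of 150 spots were higher in Whorl 3 than in Whorl 1 and 12 lower, against 8.6% and 6.54% of the 7768 spots tested, and the median difference was 0.14, with 102 of 150 above 0. Without replicate 2 of every group 9 were higher and 0 lower, against 3.17% and 2.36% of the 7751 spots tested. At an unadjusted p under 0.05 that fit had 30 higher and 12 lower among the 150, against 10.7% and 8.35%. The median over the 150 spots was 0.53, 0.59 and 0.52 on the May arrays of Whorl 3 and 0.44, 0.25 and 0.51 on those of Whorl 1, of which replicate 2 was the lowest. The Whorl 3 arrays thus all lay above those of Whorl 1, the closest pair by a narrow margin.

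The spots with the largest age differences in May were Q2P8 and Q3I17. Q2P8 had 0.74, 0.48 and 0.73 in Whorl 3 and -0.28, -0.48 and -1.36 in Whorl 1, a difference of 1.36 ± 0.23 (SE, adjusted p = 4.5e-05). Q3I17 had 0.71, 0.69 and 0.52 in Whorl 3 and -0.04, -0.55 and -0.81 in Whorl 1, a difference of 1.11 ± 0.19 (adjusted p = 6.3e-05). Both spots were thus below the January pool in the May needles of Whorl 1, and in Whorl 0 they were lower still on average, at -1.10, -1.12 and -1.03 for Q2P8 and at -1.11, -1.17 and -1.01 for Q3I17. In Whorl 1 neither spot peaked in May. The Whorl 1 mean of Q2P8 was lowest in May, at -0.71, and highest in July, at -0.14. That of Q3I17 was -0.47 in May and -0.13 in July. Whorl 2 lay between Whorl 1 and Whorl 3 on average, with -0.38, 0.10 and 0.80 for Q2P8 and -0.15, 0.18 and 0.59 for Q3I17.

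In the other direction, Q16P6 had 0.27, 0.71 and 0.38 in Whorl 3 and 1.46, 1.98 and 0.98 in Whorl 1, a difference of -1.02 ± 0.26 (SE, adjusted p = 0.0054). Q10J8 had -0.44, -0.23 and -0.26 in Whorl 3 and 0.38, 0.71 and 0.97 in Whorl 1, a difference of -1.0 ± 0.22 (adjusted p = 0.0014). In both the groups did not overlap. Neither call was kept without replicate 2, and that of Q16P6 was also lost without replicate 1.

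The age difference changed with the month. The median of Whorl 3 minus Whorl 1 over the 150 spots stood at -0.05 for January, at 0.13 for March and at 0.14 for May. July had -0.38, followed by -0.08 in September and -0.02 in November, while over all complete spots it stayed between -0.01 and 0.01. In July 139 of 150 spots were lower in Whorl 3. An interaction term, the May difference less the mean difference of the other 5 months, passed the threshold as positive for 32 of 150 spots and as negative for 1, against 5.74% and 4.74% of the 7366 spots tested. Its median was 0.22. July carried part of this, because with July left out of the other months, an alternative added after the values had been seen, 18 were positive and 3 negative, against 4.68% and 4.24% of the 7413 spots tested. Without replicate 2 of every group 7 were positive and 0 negative, against 1.07% and 0.956% of 7220 spots. At an unadjusted p under 0.05 these were 26 and 2, against 8.23% and 6.51%. The largest positive terms were those of Q2P8, at 1.45 ± 0.25 (SE, adjusted p = 9.6e-05), and Q3I17, at 1.14 ± 0.21 (adjusted p = 0.00021). The only negative one was that of Q21H7, at -0.58 ± 0.17 (adjusted p = 0.016), which was not kept without replicate 1 or 2.

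The July difference itself was tested after it had been seen. Of the 150 spots 26 were lower in Whorl 3 than in Whorl 1 in July and 0 higher, against 1.19% and 0.577% of the 7630 spots tested. At an unadjusted p under 0.05 in limma, 89 of the 150 spots were lower and 0 higher, against 7.00% and 5.33% of all spots. By array, the median over the spots was 0.06, -0.02 and -0.38 in Whorl 3 and 0.11, 0.44 and 0.10 in Whorl 1, with no overlap. The number of calls depended on the fit. It was 0 without replicate 2, where limma called no spot of the whole array and 43 of the 150 were lower and 1 higher at an unadjusted p under 0.05, against 3.77% and 2.72% of all spots. It was 6 without replicate 3 (0.340% of all spots tested were lower) and 6 after quantile normalization (0.288%). When only the arrays compared entered the fit it was 0 (78 lower and 1 higher unadjusted, against 4.56% and 3.31%). With the pool as a random block within each month it was 51, against 2.82%. The median difference was negative in each of these.

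**Figure D4:**
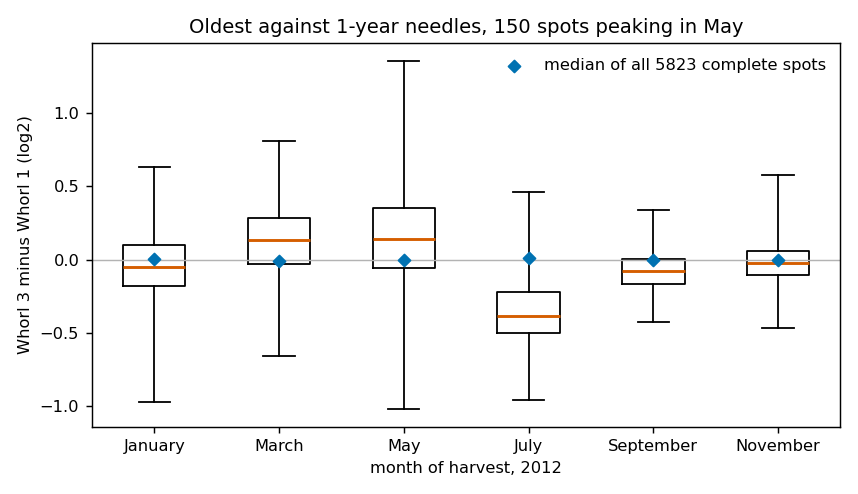
Difference in log2 ratio between Whorl 3 and Whorl 1 by month, as boxes (quartiles and median) with whiskers to the extremes over the 150 spots, and diamonds for the median of all 5823 complete spots. The median of the 150 spots is 0.14 in May and -0.38 in July, while the diamonds stay near 0.

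What the spots shared beyond the choice was their behaviour across the Whorl 0 arrays and their place in the naming scheme of the array. Over the 12 Whorl 0 arrays, the median Pearson correlation between pairs of the 150 spots was 0.56, against 0.01 between pairs of all complete spots, where the arrays and their normalization are shared. Their residual SD within groups had a median of 0.20, against 0.10 for all complete spots, so their variation between arrays of a group was more than usual. This SD includes the mature arrays used in the choice, and a choice by the largest margin may favour such spots. It holds labelling and hybridisation as well as differences between pools. A spot name reads like a plate number, a row letter and a column number, although the sources do not state this. Of the 150 spots 42 (28%) have names that begin with Q8, as do 4.03% of the spots from which the choice was made, and 19 (12.7%) begin with Q10, against 5.36%. The 42 were all in columns 10 to 24 of the Q8 names, where they were 42 of 157, with 0 of 76 in columns 1 to 9. That division was made after the values had been seen.

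The Whorl 0 difference of May was also described by spot name, and its median was further below 0 among the Q8 spots than among the others. Of the 42 Q8 spots 31 (73.8%) were lower and 4 (9.52%) higher in Whorl 0 of May than in the mean of the later months. Their median difference was -0.72, and among all spots tested 18.5% were lower and 15% higher. Of the 108 others 63 (58.3%) were lower and 20 (18.5%) higher, with a median of -0.45. The other 191 complete Q8 spots, from all columns, had 52 lower and 30 higher, with a median of -0.03. The columns of the Q8 names differed. In columns 10 to 24 the 157 spots, with the 42 among them, had a median difference of -0.17 and a median Whorl 0 May level of -0.27. The 76 spots of columns 1 to 9 had -0.0008 and 0.04. The part of array position in these results was not tested.

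The pattern in Whorl 0 went on beyond the limit of the choice. Among the spots ranked 151 to 300 by their margin, 75 (50%) were lower in Whorl 0 of May than in the mean of the later months. The higher ones were 24 (16%), and the median was -0.28. Among all spots tested 18.5% were lower and 15% higher, so the higher spots were near that share. Against July 90 (60%) were lower and 5 (3.33%) higher, where 15.1% and 10.3% of all spots tested were called. Within the 150, the upper 75 had 52 (69.3%) lower and 9 (12%) higher than in the mean of the later months. The lower 75 had 42 (56%) lower and 15 (20%) higher.

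**Figure D5:**
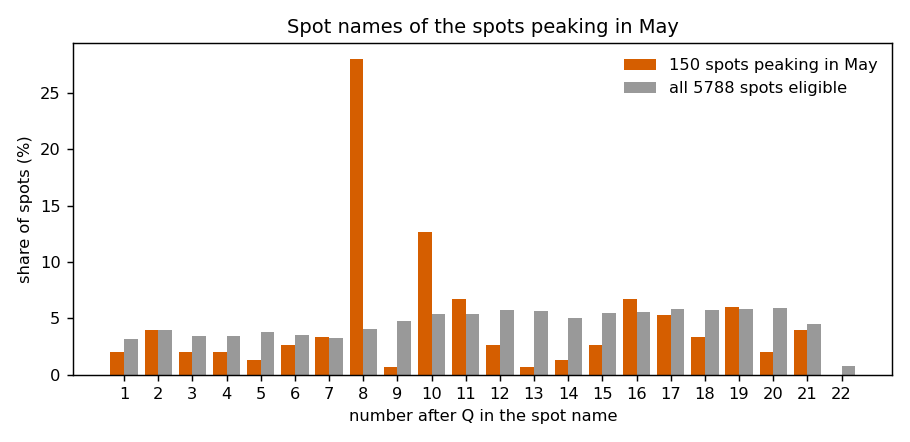
Share of spots by the number that follows Q in the spot name, for the 150 spots peaking in May and for all 5788 spots from which they were chosen. Names beginning with Q8 make up 28% of the 150 spots and 4.03% of the larger set.

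Spots that the paper describes were left out of the choice, and none had a margin near those of the 150. The largest margins among them were 0.05 for Q16P17, an R2R3-Myb transcription factor, 0.04 for Q10D23, a methylenetetrahydrofolate dehydrogenase of the one-carbon metabolism, and -0.03 for Q7G9, a triose-phosphate isomerase, which interconverts the triose phosphates of glycolysis and the Calvin cycle. By Pearson correlation with the mean of the 150 spots over the 22 group means, which share their reference and trees, the closest were Q7G9 (r = 0.62), the ketol-acid reductoisomerase Q17J10 of branched-chain amino acid synthesis (0.61) and the pectin methylesterase-like Q17N23 (0.60). Each of these had its highest mature level in July, at 0.79, 0.42 and 0.60, with 0.76, 0.31 and 0.47 in May.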

How the data were processed

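Cy3-labelled amplified RNA from needles was hybridised with a Cy5-labelled pool of January samples, per the labels' source name and harvest date for that channel and the paper's methods. Its month field conflicts with these in most samples. The authors deposited log ratios that they had normalized across arrays with BABAR, and these were treated as log2 values. The base of the logarithm is not given in the sources used here, and the direction follows the study's reading. The values were used as deposited. Arrays had between 6519 and 8076 spots with a value. Precision is limited by how many arrays a group has.

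Spots measured on 0.5 or more of the 65 arrays and in each group compared were tested in R 4.3.3 with limma 3.58.1. The model had a mean for each of the 22 groups, with moderated variances, and Benjamini-Hochberg adjustment over all spots tested. There were 6 comparisons, and 2 were added after the values were seen. The fit was tested on simulated data. Spots named are those with the 2 largest margins, those at the limit, in each planned comparison the 2 highest and 2 lowest called, and of the spots described in the paper the 3 with the largest margin and the 3 with the highest correlation. The members, lists and tests were chosen with earlier results of these data known. Alternatives were quantile normalization, other filters and fits, a replicate block, each replicate left out, and other choices of members.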

Additional observations from a re-analysis of the deposited data

Results flagged for a closer look

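The median over the 150 spots moved in opposite directions in young and mature needles. May minus the mean of July, September and November was -0.511 in Whorl 0, with its 3 May arrays between -0.554 and -0.430, and 0.685 in Whorls 1 to 3, with their 9 May arrays between 0.447 and 0.839. This difference was not tested, and the mature values were used to choose the spots.

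For some of the spots the difference between Whorl 3 and Whorl 1 in May differed from its mean in the other 5 months. The arrays of both whorls were also used to choose the spots. The interaction term of the limma fit passed the threshold as positive for 32 of 150 spots and as negative for 1, against 5.74% and 4.74% of all spots tested, and 117 were not called. With July left out of the other months 18 were positive and 3 negative. Without replicate 2 these numbers were 7 and 0 (26 and 2 at an unadjusted p under 0.05).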

How the results depend on the processing

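The median difference kept its sign in every comparison and alternative but 1. After quantile normalization, May against November in Whorl 0 had 47 called spots of 150 (28 higher and 19 lower, median 0.02), against 88 as reported, and May against the mean of the later months had 67, against 118. Over all spots tested, quantile normalization called 1302 spots in the latter comparison, against 2466. With July left out of the other months, the interaction term called 21. In July, Whorl 3 against Whorl 1 called 26 as reported, 0 with only the arrays compared (78 lower and 1 higher at an unadjusted limma p under 0.05), 6 after quantile normalization and 51 with a random replicate block.

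With 1 replicate number left out at a time, the called spots ranged from 9 to 34 for Whorl 3 against Whorl 1 in May, from 7 to 26 for the interaction, from 0 to 28 for July and from 51 to 84 for autumn against July in Whorl 0. The lowest of these were without replicate 2, and without replicate 1 for the last. The 4 Whorl 0 comparisons of May ranged from 73 to 112. In the fit as reported, these 4 comparisons called between 25.4% and 42.9% of all spots tested. Whorl 3 against Whorl 1 called 15.1% in May and 1.77% in July, the interaction 10.5% and autumn against July 33.4%. The counts and shares here join both directions. The May call of Q7H1 against November was lost without replicate 2.

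Samples of the same replicate number did not deviate together in every pair. Their correlations were -0.130 to 0.294 over 18 pairs in Whorl 0 and -0.0505 to 0.143 over 3 pairs in May. The medians were 0.099 and 0.095 for equal numbers, above those for different numbers, -0.013 and -0.057. Of the matches 19 of 36 and 3 of 6 were best with the own number. Whether the numbers pair the samples was thus not settled, and the fit as reported did not pair them. With a fixed replicate block 120, 114, 110 and 92 spots were called in the Whorl 0 comparisons of May, 45 and 36 in the May age comparisons, 33 in July and 87 in autumn. These counts also join both directions, and the share of all spots called with the block is not given here.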

Other observations

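On the array left out, November Whorl 2 replicate 2, the median over the 150 spots was 0.02, against -0.32 and -0.13 on the other 2 arrays of that group. Its correlation with them across spots was 0.259 and 0.362, against 0.394 between the other 2. With this array kept, 149 of the 150 spots were chosen again.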
